A study of Mus musculus with 8 samples.

Results

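Interferon-stimulated CD8 T cells were taken from 8 single-cell libraries of pancreatic T cells sorted from NOD mice, which become diabetic by autoimmunity. They were chosen by their own UMIs (unique molecular identifiers, each marking 1 captured transcript). A cell needed at least 500 detected genes, under 10% mitochondrial UMIs, at least 2 UMIs over Cd3d, Cd3e, Cd3g, Trac, Trbc1 and Trbc2, a UMI of Cd8a or Cd8b1, and no UMI of Cd4. It also needed a UMI of at least 3 of 6 interferon-induced genes, Ifit1, Ifit3, Isg15, Usp18, Rtp4 and Rsad2, called the gate genes here. This gave 1216 cells among 24690 CD8-gated cells, 77486 cells past the first 2 filters and 80470 barcodes in all. The comparison cells were the 17254 CD8-gated cells with none of the 6 genes, and 6220 CD8-gated cells with 1 or 2 of them were in neither set.

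The mice were NOD, labelled female. Their age is given as 3 to 4 months in one label and as 3 to 5 months in another. One library came from mice with active disease (glucose over 600 mg/dl in blood) and 1 from mice at onset (250 mg/dl), both harvested on day 1. The other 6 came from mice of new onset (200 to 300 mg/dl) given vehicle or PPCA daily, with 1 library of each on days 2, 3 and 4. PPCA joins nutlin-3 at 50 mg/kg, an inhibitor of the p53 antagonist MDM2, with MK-1775 at 25 mg/kg, an inhibitor of the cell cycle kinase WEE1, and the vehicle held ethanol, Tween 20 and PEG300. Per the labels, cells were sorted as CD45+ CD3+ TCR-beta+, frozen and later processed together, and the number of mice behind a library is not stated. Where a comparison rests on libraries, its p-value measures the spread between these libraries only.

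The libraries held 36934580 to 67603740 UMIs, and the median CD8-gated cell held 4376 to 7289 UMIs. Xist, the noncoding RNA of the inactive X chromosome, stood between 418 and 623 UMIs per 1000000 UMIs (CPM) in the active, onset, vehicle day 4 and PPCA day 2 libraries. It was under 0.75 CPM on day 3 in both arms, on day 2 under vehicle and on day 4 under PPCA. In these 4 libraries Y-linked transcripts summed to 188 to 275 CPM, against the label of female. The day 2 and day 4 pairs of vehicle and PPCA therefore differed in sex-linked transcripts as well as in treatment, and these cannot be told apart within those days. Any pair of libraries shared 10 to 38 barcodes among kept cells, and no barcode of an interferon-stimulated CD8 cell occurred in another library's set.

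Type I interferons bind the receptor made of IFNAR1 and IFNAR2, whose kinases JAK1 and TYK2 phosphorylate STAT proteins. These join IRF9 and bind the interferon-stimulated response element, a repeated GAAA-type sequence, in front of antiviral genes. Interferon-gamma signals through another receptor to STAT pairs that bind gamma-activated sites, and the 2 sets of target genes overlap. In autoimmune diabetes, interferons are known for raising MHC class I on beta cells and for acting on the T cells that enter the islets.

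Of the gate genes, Ifit1 and Ifit3 encode proteins that bind viral RNA, Isg15 a ubiquitin-like modifier, and Usp18 the protease that removes it and damps the type I receptor. Rsad2 encodes viperin, an enzyme that makes a chain-terminating nucleotide, and Rtp4 an interferon-induced protein of the receptor transporter family. RefSeq's table of promoters (GRCm38.p6) held 4 of the 6 gate genes and neither Usp18 nor Rtp4. The sequences below show the 200 bases before the start site of these 4 genes, of Slfn5 and Bst2, which passed the interaction of class and treatment given further on, and of Gbp2, a guanylate-binding protein gene. Each is read 5′ to 3′ along the gene's own strand, and capitals mark the core of the interferon-stimulated response element on either strand, searched as GAAA, any 2 bases and again GAAA. The coordinates are those of RefSeq's table, and the build used for the deposited counts is not given in the sources used here.
Ifit1 (chr19:34640689-34640888, + strand): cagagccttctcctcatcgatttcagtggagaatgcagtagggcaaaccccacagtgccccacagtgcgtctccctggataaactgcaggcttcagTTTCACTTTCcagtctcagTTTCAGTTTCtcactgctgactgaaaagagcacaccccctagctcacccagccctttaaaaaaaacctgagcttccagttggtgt
Ifit3 (chr19:34583329-34583528, + strand): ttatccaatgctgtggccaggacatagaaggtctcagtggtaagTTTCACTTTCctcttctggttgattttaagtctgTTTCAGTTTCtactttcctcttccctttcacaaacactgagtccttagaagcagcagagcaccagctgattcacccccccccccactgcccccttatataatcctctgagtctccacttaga
Isg15 (chr4:156200819-156201018, - strand): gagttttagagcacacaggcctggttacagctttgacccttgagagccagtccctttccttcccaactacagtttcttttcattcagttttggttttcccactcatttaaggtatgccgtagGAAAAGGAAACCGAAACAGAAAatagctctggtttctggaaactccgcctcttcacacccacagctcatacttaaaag
Rsad2 (chr12:26456453-26456652, - strand): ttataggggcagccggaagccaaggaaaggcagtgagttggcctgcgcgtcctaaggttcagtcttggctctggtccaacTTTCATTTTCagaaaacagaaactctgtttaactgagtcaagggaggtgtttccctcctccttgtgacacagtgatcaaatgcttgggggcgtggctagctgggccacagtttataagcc
Slfn5 (chr11:82951902-82952101, + strand): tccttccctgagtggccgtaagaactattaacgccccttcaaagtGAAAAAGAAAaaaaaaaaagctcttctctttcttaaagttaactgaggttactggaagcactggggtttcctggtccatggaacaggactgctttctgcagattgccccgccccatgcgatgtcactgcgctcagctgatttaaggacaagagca
Bst2 (chr8:71537473-71537672, - strand): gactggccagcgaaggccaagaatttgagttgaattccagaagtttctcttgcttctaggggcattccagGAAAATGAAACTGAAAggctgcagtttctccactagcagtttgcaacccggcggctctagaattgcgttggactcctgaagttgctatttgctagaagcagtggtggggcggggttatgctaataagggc
Gbp2 (chr3:142620463-142620662, + strand): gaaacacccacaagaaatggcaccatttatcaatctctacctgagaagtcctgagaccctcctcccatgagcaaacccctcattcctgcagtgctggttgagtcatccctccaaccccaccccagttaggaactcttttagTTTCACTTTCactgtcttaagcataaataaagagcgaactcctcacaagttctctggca

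The core stood within 156 bases of the start site in each of the promoters shown, and Isg15 carried 3 overlapping copies with first bases 78, 72 and 66 bases before it. Ifit1 carried copies at 104 and 85 bases, Ifit3 at 156 and 122 bases, and Rsad2 1 copy at 120 bases before the start. In Slfn5 the copy began 155 bases before the start, in Bst2 overlapping copies began at 130 and 124 bases, and in Gbp2 the copy began at 59 bases. Over windows from 250 bases before to 50 bases after the start, on both strands, 3.99% of the 27025 genes in the table had the core. The share was 4 of the 4 gate genes found, 19 of 47 type I interferon-stimulated genes outside the gate (40.4%) and 10 of 12 interferon-gamma-induced GTPases and related genes (83.3%). The core of the gamma-activated site, TTCNNNGAA, was in 9.55% of all genes, in none of the 4 gate genes, in 8 of the 47 type I genes (17.0%) and in 6 of the 12 GTPases and related genes (50.0%). The windows of Irf7, Xaf1 and Irf9, which were also read and are not shown, held no core. These are matches of letters in a window and not measured binding sites.

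Among the 1216 interferon-stimulated CD8 cells, 606 (49.8%) carried exactly 3 gate genes, 369 (30.3%) carried 4, 183 (15.0%) carried 5 and 58 (4.77%) carried all 6. Isg15 had a UMI in 91.4% of them, Ifit1 in 78.2%, Rtp4 in 73.1%, Ifit3 in 68.1%, Usp18 in 48.0% and Rsad2 in 16.0%. The commonest trio among cells with exactly 3 genes was Ifit1, Isg15 and Rtp4, in 161 cells (26.6%), followed by Ifit1, Ifit3 and Isg15 in 113 (18.6%) and Ifit3, Isg15 and Rtp4 in 93 (15.3%). Isg15 thus admitted most cells, and Rsad2 few.

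The cells were 4.93% of CD8-gated cells and held a larger part of the gate genes' UMIs. They held 85.1% of the CD8-gated UMIs of Rsad2, 72.7% of Ifit3, 68.2% of Ifit1, 51.5% of Usp18, 46.2% of Isg15 and 42.1% of Rtp4. Isg15, Usp18 and Rtp4 were therefore spread more widely over CD8 cells outside the set than Rsad2 was. Because these genes made the rule, the figures describe the set and test nothing. By library, summed over the set's cells, Ifit1 ran from 178 CPM to a median of 309 and 547 CPM, Isg15 from 219 to a median of 436 and 583 CPM, and Rsad2 from 9.79 to a median of 41.5 and 113 CPM. The vehicle library of day 3 was lowest for each of these 3 genes. The PPCA library of day 4 was highest for Ifit1 and Rsad2, and that of day 3 for Isg15.

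The rule split a gradient. A list of type I interferon-stimulated genes outside the gate, 55 of them present in the files, was summed in each library over CD8 cells grouped by their number of gate genes. Just outside the threshold, cells with 2 gate genes summed to 8430 CPM in the active library, 8197 in the onset library, 11797 in the PPCA library of day 2 and 6377 in that of day 4. Just inside it, cells with 3 gate genes summed to 11561, 11216, 14232 and 10452 CPM in the same libraries. In bins of at least 5 cells the sum rose at every step from 0 gate genes upward in 7 of 8 libraries. The exception was the vehicle library of day 2, with 11903 CPM in 23 cells with 3 gate genes and 10042 CPM in 14 cells with 4.

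**Figure D1:**
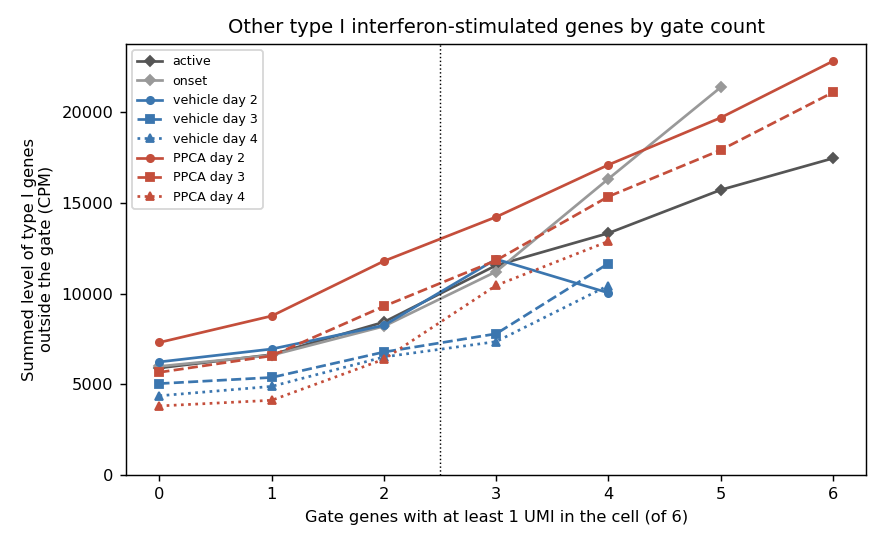
Summed level of 55 type I interferon-stimulated genes outside the gate (vertical axis, CPM) against the number of gate genes with a UMI (horizontal axis), with 1 line per library and bins of at least 5 CD8-gated cells. The lines climb from 3800.3 to 7306 CPM at 0 gate genes, with a single downward step, in the vehicle library of day 2 between 3 and 4 gate genes.

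Single cells varied widely around these sums. The type I list outside the gate had a median of 13554 CPM per interferon-stimulated cell, with the 10th percentile at 7330 and the 90th at 24583 CPM. In the comparison cells the median was 4866 CPM, with percentiles of 2775 and 8187 CPM. The share of interferon-stimulated cells above the 90th percentile of their own library's comparison cells ran from 50.0% (vehicle, day 4) and 59.4% (vehicle, day 3) to 85.8% (PPCA, day 3) and 88.2% (PPCA, day 4). Part of the set thus lay within the range of the comparison cells on this list, most often under vehicle.

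Against comparison cells of the same library, 234 of 9921 genes (2.36%) passed an adjusted p under 0.05 by edgeR's quasi-likelihood test on UMIs summed per library and class. Of these, 222 genes (2.24%) were higher and 12 (0.121%) lower in the interferon-stimulated cells, and 110 of the 222 were higher in every library after TMM scaling (128 by CPM). An unadjusted p under 0.05 was found for 804 genes (8.1%). At least 2-fold differences were found for 99 of the higher and 3 of the lower genes. The gate genes were left out of the fit, but the same cells' UMIs chose the classes and then gave these counts, so the counts are a description of the set. Over all genes tested the median log2 fold change was -0.02. Overlap of libraries between the classes, given below, was read for named genes and list sums only. The share of all 9921 tested genes without overlap was not computed, so these statements describe single genes. Levels of different genes are not compared with each other, and near-identical copies (Ifit3 and Ifit3b, the Tgtp, Gbp, Slfn, Ly6 and Ifi20x families, and the H2-T genes) may share reads.

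The type I list outside the gate was higher throughout. All 49 of its tested genes passed the test upward, with a median log2 fold change of 1.68. Summed over the list, the level ran from 8098 CPM to a median of 13155 and 16612 CPM in interferon-stimulated cells, and from 3800.3 to a median of 5777 and 7306 CPM in comparison cells, without overlap. Ifit3b, a close copy of Ifit3, had 15.3, 51.5 and 132 CPM (lowest, median and highest library) in interferon-stimulated cells and at most 2.17 CPM in comparison cells, a log2 fold change of 5.73 (SE 0.278). Oasl2, of the oligoadenylate synthetase family, had 10.0, 34.1 and 56.6 CPM against 1.20, 2.65 and 5.64 CPM, a log2 fold change of 3.75 (SE 0.241). Oas3, whose product activates the antiviral RNase L, had 20.3, 51.1 and 83.8 CPM against 2.53, 6.28 and 11.9 CPM, a log2 fold change of 2.99 (SE 0.141). The libraries of these 3 genes did not overlap between the classes.

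Further genes of this list passed the test. Of the RNA sensor genes among them, Dhx58 (LGP2) was higher by 3.12 on the log2 scale (SE 0.201), Ifih1 (MDA5) by 2.64 (SE 0.148) and Eif2ak2, the RNA-activated kinase PKR, by 2.97 (SE 0.176). Isg20, an RNA exonuclease, was higher by 2.47 (SE 0.161), with libraries that overlapped between the classes. Ifi206, of the interferon-inducible PYHIN family, was higher by 2.60 (SE 0.130). Slfn5, of the Schlafen family, had 50.8, 157 and 309 CPM in interferon-stimulated cells and 14.4, 26.3 and 49.2 CPM in comparison cells, a log2 fold change of 2.74 (SE 0.130). Irf7, the transcription factor that amplifies the type I response, had 80.3, 135 and 246 CPM against 18.6, 26.1 and 55.7 CPM, a log2 fold change of 2.46 (SE 0.0922). Slfn5 and Irf7 did not overlap between the classes, and each was higher in 8 of 8 libraries.

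Other members of the list are named here after their values were seen. Bst2 (tetherin), which holds budding virions at the membrane, had 264, 369 and 594 CPM against 72.7, 95.9 and 121 CPM. Ly6a (Sca-1), a surface marker of activated T cells, had 1103, 2069 and 2568 CPM against 481, 704 and 829 CPM, a log2 fold change of 1.44 (SE 0.0772). Ifi27l2a, a small interferon-induced protein, had 625, 1303 and 1973 CPM against 183, 243 and 513 CPM, a log2 fold change of 2.12 (SE 0.0882). Rnf213, a large ubiquitin ligase, was higher by 2.06 (SE 0.0982). None of these 4 genes overlapped between the classes.

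In the list of interferon receptors, kinases, STATs, IRFs and inhibitors, 5 of 20 tested genes passed the test upward and none downward, with a median log2 fold change of 0.06. Among the 5 were the downstream components Stat2 and Irf9, the feedback inhibitor Socs1 and the repressor Irf2. Stat2 was higher by 1.62 (SE 0.131), Irf9 by 1.20 (SE 0.0820), Socs1 by 0.67 (SE 0.0938) and Irf2 by 0.28 (SE 0.0641), all with overlapping libraries. Irf2 lost its call without the active library, in the Xist-positive libraries and in the Y-positive libraries.

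The receptor and its kinases did not pass the test, and are named after their values were seen. Ifnar1 had a median of 54.5 CPM in interferon-stimulated cells and 51.1 CPM in comparison cells, and Ifnar2 78.9 and 75.9 CPM. Jak1 had 554 and 601 CPM, and Tyk2 19.1 and 18.1 CPM. Ifngr1, a chain of the interferon-gamma receptor, had 139.8 and 159 CPM. Libraries of the 2 classes overlapped for each of these 5 genes.

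Of 20 type I and type III interferon genes in the files, 18 had 0 UMIs over all 77486 kept cells, among them Ifnb1, Ifne, Ifnl2 and Ifnl3. Ifnab had 3 UMIs, none of them in the set. Ifnk had 418 UMIs in kept cells and 4 in interferon-stimulated cells. Ifng, the interferon made by T cells, had 9291 UMIs in CD8-gated cells, of which 362 were in interferon-stimulated cells. Poorly captured or brief transcripts cannot be told apart from absent ones at this depth.

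The 16 tested genes among the interferon-gamma-induced GTPases and related genes all passed the test upward, with a median log2 fold change of 1.23. The list summed to 742, 1427 and 1835 CPM in interferon-stimulated cells and 323, 572 and 714 CPM in comparison cells, again without overlap. Gbp6, a guanylate-binding protein, had 66.1, 112 and 168 CPM against 15.9, 24.1 and 29.9 CPM, a log2 fold change of 2.25 (SE 0.102). Gbp7 had 173, 242 and 321 CPM against 52.8, 93.6 and 121 CPM, a log2 fold change of 1.41 (SE 0.0774). Neither gene overlapped between the classes, whereas Gbp9 (1.66, SE 0.0949), Igtp (1.56, SE 0.0849), Gbp2 (1.28, SE 0.108) and Tgtp1 (1.14, SE 0.126) did. Genes attributed to interferon-gamma were thus part of the set's profile along with those attributed to type I interferon.

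Of 21 tested genes of MHC class I presentation, 10 passed the test upward and none downward, with a median log2 fold change of 0.20. H2-T23, which encodes the nonclassical molecule Qa-1, had 193, 349 and 432 CPM against 140.3, 192 and 266 CPM, a log2 fold change of 0.79 (SE 0.0634). Tapasin (Tapbp) was higher by 0.62 (SE 0.0669), the immunoproteasome subunit Psmb10 by 0.55 (SE 0.0685) and the peptide transporter Tap1 by 0.50 (SE 0.0683). The proteasome activators Psme1 and Psme2 were each higher by 0.40 (SE 0.0613 and 0.0642). Psmb10, Psme1 and Psme2 did not overlap between the classes. The light chain B2m and the heavy chains H2-K1 and H2-D1, named after their values were seen, did not pass the test, with medians of 2756, 1699 and 2363 CPM in interferon-stimulated and 2398, 1530.2 and 2059 CPM in comparison cells. When each cell was set against comparison cells of equal UMI number from its library, 15 of the 21 genes passed.

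Outside the lists, 149 genes passed the test. The 8 highest by the naming rule were Phf11c (2.05, SE 0.124), Csprs (1.66, SE 0.126), Pml (1.63, SE 0.120), Trafd1 (1.60, SE 0.141), Ifi214 (1.58, SE 0.0991), Iigp1 (1.53, SE 0.115), Trim25 (1.52, SE 0.105) and Hsh2d (1.51, SE 0.135). Pml organises nuclear bodies, Trim25 is a ubiquitin ligase that activates the RNA sensor RIG-I, Iigp1 is an immunity-related GTPase and Hsh2d a T cell adaptor. All 8 were higher in 8 of 8 libraries. The 1 lower gene that met the rule, Trp53i13, fell by 0.48 (SE 0.136), and 13 of its alternative settings ended the call.

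**Figure D2:**
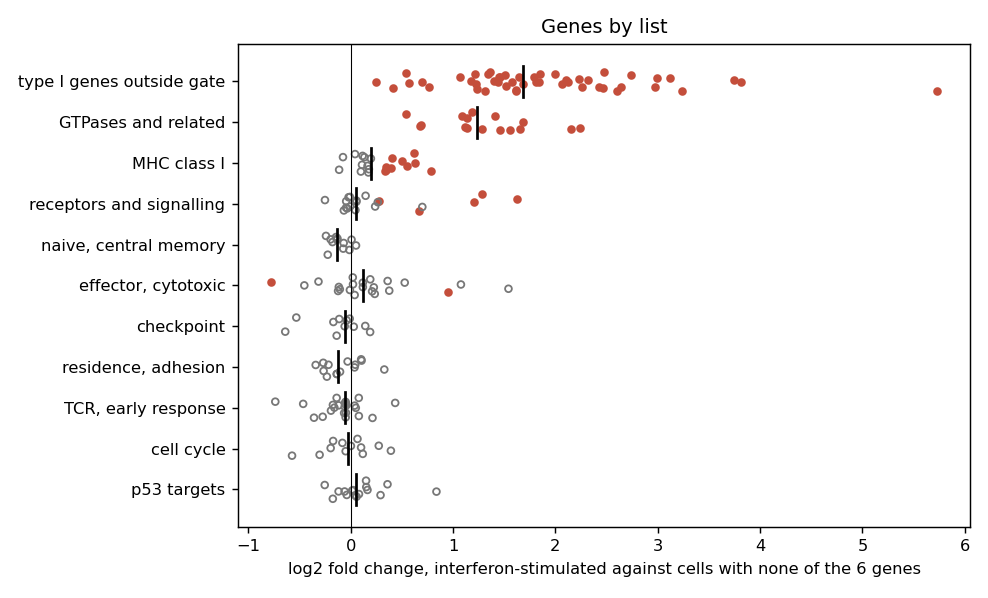
Log2 fold change of interferon-stimulated against comparison CD8 cells (horizontal axis) for the tested genes of each list, with 1 point per gene, filled where the gene passed the test, and the median of each list marked. The 49 type I genes and the 16 GTPases and related genes lie to the right of 0, while 2 of 12 naive, 3 of 11 checkpoint, 5 of 14 residence and 6 of 12 cell cycle genes do.

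Over all libraries, no gene of 6 lists on T cell state passed the test with the settings used throughout, against 2.36% of all genes. This held for 12 naive and central memory genes, 11 checkpoint and exhaustion genes, 14 tissue residence genes, 23 TCR response genes, 12 cell cycle genes and 16 p53 targets. Their median log2 fold changes were -0.13, -0.06, -0.12, -0.06, -0.02 and 0.05. At a share of 2.36%, lists of this size would hold few calls in any case. Klf2, a quiescence factor, had a median of 698 CPM in interferon-stimulated and 778 CPM in comparison cells, and Lef1, a factor of naive T cells, 554 and 633 CPM. Lef1 had a log2 difference of -0.22 (SE 0.0823), which ran from -0.35 to -0.10 over 22 alternatives and passed in 2, without the low-count filter and without the PPCA library of day 2. Tox, a factor of exhausted cells, had 60.6 and 70.4 CPM, and the checkpoint receptor Ctla4 19.5 and 21.3 CPM. Cd69, an early activation and residence marker, had 511 and 455 CPM, and Tubb5, a tubulin of dividing cells, 375 and 418 CPM.

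Of 22 effector and cytotoxic genes, 1 passed the test upward and 1 downward, with a median log2 fold change of 0.12. The higher gene was Gzmm, a granzyme, with 0, 26.5 and 53.6 CPM against 5.91, 13.1 and 40.9 CPM, a log2 fold change of 0.95 (SE 0.160). Its call was lost by limma-voom, without the library block and against comparison cells matched on UMIs, where the log2 fold change was 0.06. The lower gene was the chemokine Xcl1, which fell by 0.77 (SE 0.157), with 21.5, 48.1 and 201 CPM against 32.6, 83.4 and 190.4 CPM. Without the PPCA library of day 2 Xcl1 fell by 0.41 and the call was lost, and in the vehicle and PPCA libraries of day 4 its level was above that of comparison cells (102 against 76.9 CPM and 201 against 89.9 CPM). The Xcl1 call was also lost by DESeq2, by limma-voom, without the library block and in the Y-positive libraries. Both genes are named after their values were seen.

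Libraries differed from each other in an effector gene. Ccl5, a chemokine of effector and memory CD8 cells, was read as the share of cells with a UMI after each cell was thinned to 2000 UMIs, and is named after its values were seen. At onset Ccl5 was in 61.5% of the 52 interferon-stimulated cells (exact Clopper-Pearson 95% interval 47.0 to 74.7%) and 33.3% of comparison cells (30.9 to 35.7%). In the PPCA library of day 4 it was in 76.5% of 34 cells (58.8 to 89.3%) against 30.1% (28.8 to 31.6%). In these libraries the intervals of the classes did not meet.

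The libraries with the most interferon-stimulated cells looked different. In the active library Ccl5 was in 16.9% of 384 cells (13.3 to 21.1%) against 18.4% (16.4 to 20.4%). In the PPCA library of day 2 Ccl5 was in 34.7% of 386 cells (30.0 to 39.7%) against 40.1% (37.5 to 42.8%). In the PPCA library of day 3 Ccl5 was in 15.2% against 13.2%. In these 3 libraries the intervals of the classes met. The 3 vehicle libraries had 28 to 64 such cells, with Ccl5 in 39.5%, 18.8% and 28.6% against 30.0%, 13.9% and 16.6%, and intervals that met.

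Without thinning, Ccl5 was in 65.4% against 41.9% at onset, 79.4% against 35.5% in the PPCA library of day 4, 26.0% against 26.2% in the active library and 44.0% against 45.8% in the PPCA library of day 2. In the PPCA library of day 3 it was in 24.9% against 16.5% without thinning, at median depths of 5753 and 5013 UMIs, a wider gap than after thinning. Under vehicle on days 2, 3 and 4 it was in 46.5%, 18.8% and 32.1% against 36.8%, 19.8% and 21.6%, so that the order on day 3 turned. As a level for free RNA and other T cells, Ccl5 was in 2.51 to 9.64% of CD4-gated cells after thinning, at median depths of 3900.0 to 6199 UMIs, against 3741 to 7912 UMIs in interferon-stimulated cells. The intervals cover counting error only, and with 1 library in the active and onset groups no test of the groups was possible. The effector list summed to 14944 against 6583 CPM at onset and 13060.0 against 5525 CPM under PPCA on day 4. It summed to 2620.4 against 3059 CPM in the active and 5661 against 7619.6 CPM in the PPCA library of day 2. Under vehicle on day 4 it summed to 6792 against 3515 CPM. Other lists also differed between the classes at onset and under PPCA on day 4. Checkpoint genes summed to 482 against 249 CPM at onset and 918 against 415 CPM under PPCA on day 4, and were lower in the set in the other 6 libraries. Tissue residence genes summed to 3700 against 2406 CPM and 4299 against 2658 CPM, and naive and central memory genes to 3099 against 4518 CPM and 4041 against 5657 CPM, in the same 2 libraries. These directions were not limited to them. Of the 8 libraries, residence genes were higher in the set in 4, and naive and central memory genes in 1. Differences in which CD8 cells were sampled and differences in transcripts per cell cannot be told apart here.

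**Figure D3:**
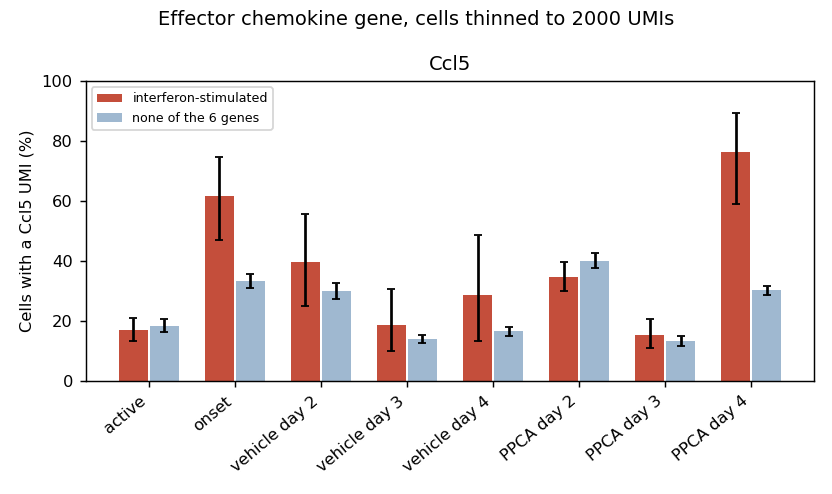
Share of cells (vertical axis, %) with a UMI of Ccl5 after thinning to 2000 UMIs, for interferon-stimulated and comparison CD8 cells of each library, with exact 95% intervals. The onset and PPCA day 4 libraries stand out, at 61.5% and 76.5% in the interferon-stimulated cells.

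Markers of other cells were read as well. No interferon-stimulated cell had 2 or more UMIs over the B and myeloid genes used for exclusion, against 0.0516 to 0.289% of comparison cells. The B cell list summed to 50.3 to 270 CPM against 116 to 268 CPM, and the myeloid list to 112 to 185 CPM against 119.7 to 189 CPM. Ms4a1, Adgre1, Cd14, Ms4a7, C1qa, Siglech and Klrb1c had 0 UMIs in the set, while other genes of their lists had UMIs. In the active set 2 of 8 B cell, 5 of 12 myeloid, 5 of 8 plasmacytoid dendritic and 1 of 7 NK and gamma delta genes had 0 UMIs. In the more numerous comparison cells of that library 1, 4, 4 and 0 did. The NK and gamma delta T cell list summed to 45.0 to 251 CPM against 57.1 to 129 CPM and was higher in the set in 5 of 8 libraries, among them onset (251 against 117 CPM) and PPCA day 4 (138 against 68.1 CPM). Klre1, an NK receptor gene of that list, had 139 CPM in the onset set against 44.6 CPM in comparison cells. Over all libraries its log2 difference was -0.16 and ran from -0.58 to 0.22 over the alternatives. None of the 3 tested genes of the list passed. Per the labels the sort was for CD3+ TCR-beta+ cells, and the part of NK and gamma delta T cells in the results was not tested. The pancreas list of exocrine and endocrine genes summed to 8.29 to 45.5 CPM against 20.9 to 84.7 CPM, and was lower in the set in each of the 8 libraries. Of its 5 tested genes the pancreatic enzymes Ctrb1 and Prss2 passed the test downward, by 1.32 (SE 0.205) and 1.44 (SE 0.273) on the log2 scale, as did Cela2a outside the lists (fell by 2.03, SE 0.381), all 3 named after their values were seen. Alternative settings ended these calls too, 3 of them for Ctrb1, 4 for Prss2 and 3 for Cela2a. Ccr9, a gut homing receptor in the list for plasmacytoid dendritic cells, fell by 0.41 (SE 0.102), and 6 alternative settings ended its call. The other lower genes were Hivep3, Rfx1, St6galnac2, Tbc1d4, Tcrg-C2 and Tcrg-C4.

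Sequencing depth moved with the set. The median UMI number was higher in interferon-stimulated than in comparison cells in 7 of 8 libraries, for example 7912 against 7029 in the active library, and lower in the PPCA library of day 4 (3741 against 4347). Against comparison cells matched on UMIs within the library, 157 genes were higher and 8 lower of 4661 tested. Of the 157 higher genes of the first comparison that could be tested again, 141 kept their call, and of the 4 lower genes 1 did. All 37 type I genes and all 11 GTPases and related genes tested there passed upward.

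The next question was how often CD8 cells were in this state, by disease stage and treatment. Thinned to 2000 UMIs, 97 of 2884 cells of the active library carried at least 3 gate genes, 3.36% (2.74 to 4.09%), and 10 of 2210 cells of the onset library, 0.452% (0.217 to 0.831%). Under vehicle the share was 0.857% (0.480 to 1.41%) on day 2, 0.205% (0.0885 to 0.403%) on day 3 and 0.10% (0.0207 to 0.293%) on day 4. Under PPCA it was 5.61% (4.77 to 6.55%), 2.85% (2.29 to 3.51%) and 0.342% (0.200 to 0.548%). On days 2 and 3 the intervals of the arms stood apart, and on day 4 they met. The intervals cover counting error within 1 library and not the spread between libraries, so they do not test the treatment. The day 2 and day 4 pairs also differed in sex-linked transcripts.

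The PPCA libraries averaged 2.93% ± 2.63 (SD, n = 3) and the vehicle libraries 0.387% ± 0.410 (SD, n = 3). The share was higher under PPCA on 3 of 3 days, by 4.75, 2.65 and 0.242 percentage points, a mean of 2.55. With the 3 days as units, an exact two-sided sign-flip test gave p = 0.25, and no smaller p is possible with 3 days. Within each arm the share was lowest on day 4. The share in the PPCA library of day 4 was below the vehicle share of day 2, so the groups overlapped.

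The day 4 direction depended on depth. Unthinned, the shares were 13.3% in the active, 2.33% in the onset, 2.43%, 1.63% and 0.930% in the vehicle and 14.2%, 7.36% and 0.671% in the PPCA libraries of days 2, 3 and 4. The mean difference was then 5.74 percentage points with PPCA higher on 2 of 3 days and lower by 0.259 on day 4, and the exact two-sided sign-flip test gave p = 0.50. The median CD8-gated cell held fewer UMIs under PPCA (4576, 5157 and 4376) than under vehicle (5968, 6264 and 5620.0).

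CD4-gated T cells went through the same gate for comparison. Of 29350 such cells 1046 carried at least 3 gate genes, and thinned shares were 3.42% in the active, 0.292% in the onset, 0.322%, 0.107% and 0.0404% in the vehicle and 5.54%, 2.18% and 0.126% in the PPCA libraries. The 8 libraries stood in the same order as for CD8 cells, with a mean difference of 2.46 percentage points and 3 of 3 days higher (exact two-sided sign-flip test, p = 0.25). Unthinned, the CD4 mean difference was 5.19 percentage points with 2 of 3 days higher (exact two-sided sign-flip test, p = 0.50). The day 4 difference was then -0.0154. The difference between CD8 and CD4 cells was not tested.

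**Figure D4:**
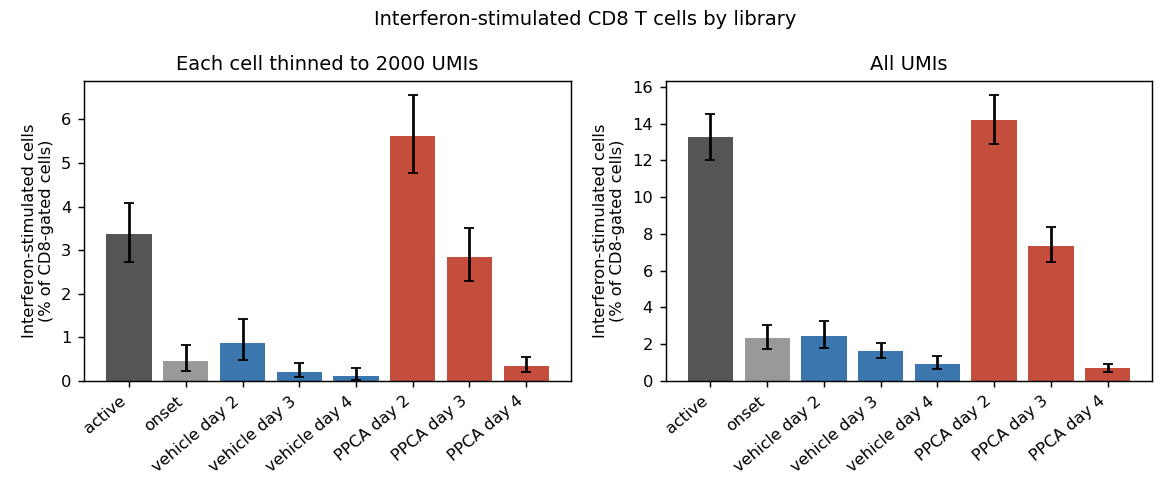
Share of CD8-gated cells with at least 3 gate genes (vertical axis, %) in each of the 8 libraries, after thinning to 2000 UMIs and without thinning, with exact 95% intervals. The active library and the PPCA libraries of days 2 and 3 stand above the others, at 3.36%, 5.61% and 2.85% after thinning.

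Within the set, the type I list outside the gate summed on days 2, 3 and 4 to 13218, 9001 and 8098 CPM in the vehicle and 16612, 14797 and 13029 CPM in the PPCA sets. PPCA was higher on each day, and the arms overlapped through the vehicle library of day 2. The sets also differed in gate gene number, on which this sum rose: at least 4 gate genes were in 46.5%, 28.1% and 25.0% of the vehicle sets' cells and in 52.6%, 58.2% and 44.1% of the PPCA sets' cells, without thinning. Their part in the difference was not tested. In comparison cells the same sums were 6231, 5034 and 4362 CPM under vehicle and 7306, 5658 and 3800.3 CPM under PPCA.

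PPCA was then compared with vehicle within the set, with day as a block. edgeR's quasi-likelihood test passed 20 of 4806 genes (0.416%), with 7 (0.146%) higher under PPCA and 13 (0.27%) lower, and 309 (6.43%) had an unadjusted p under 0.05. Of the higher genes, 4 belonged to the type I list. In that list 44 of 46 tested genes had a log2 fold change above 0, with a median of 0.55 against -0.01 over all genes, and in the GTPases and related list 10 of 14 did, with a median of 0.29 and none past the test. The sets were gated on unthinned UMIs and differed in depth. On days 2, 3 and 4 their median cell held 5347.5, 5753 and 3741 UMIs under PPCA and 6672, 7078.5 and 6708 under vehicle. A shallower cell needs a larger share of gate gene UMIs to enter the set. The part of depth and gate gene number in this comparison and in the genes below was not tested.

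Slfn5 changed most. It had 87.1, 78.3 and 50.8 CPM in the vehicle sets of days 2, 3 and 4 and 301, 309 and 226 CPM in the PPCA sets, and rose by 1.83 on the log2 scale (SE 0.197, adjusted p = 0.000445). The arms did not overlap, but on day 4 a single PPCA cell held 23 of 36 UMIs, and without that cell the set stood at 86.6 CPM, below the vehicle set of day 2. With the highest cell left out of that vehicle set too, it stood at 71.1 CPM. Irf7 had 127, 80.3 and 112 CPM under vehicle and 246, 209 and 201 CPM under PPCA (0.99, SE 0.192, adjusted p = 0.0277). Ifi27l2a had 961, 625 and 905 CPM and then 1973, 1311 and 1703 CPM (0.90, SE 0.138, adjusted p = 0.0075). The PYHIN genes Ifi208 and Ifi214 rose by 1.42 (SE 0.209, adjusted p = 0.00593) and 0.98 (SE 0.184, adjusted p = 0.0247), higher on 3 of 3 days. For Irf7 and Ifi27l2a every PPCA set lay above every vehicle set, also when the cell with the most UMIs of the gene was left out of each set.

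Other interferon genes are given as values. Bst2 had 332, 309 and 264 CPM under vehicle and 521, 594 and 540.5 CPM under PPCA without overlap, and missed the threshold (0.75, SE 0.162, adjusted p = 0.0611). It passed in 4 of 10 alternatives, by limma-voom, without the low-count filter, with sex-linked status as a factor and without doublets, with an adjusted p from 0.00869 to 0.999 over the 10. The gate genes chose the cells, so their levels are a description. Ifit1 had 295, 178 and 193 CPM under vehicle and 358, 365 and 547 CPM under PPCA. Isg15 had 489, 219 and 244 CPM and then 577, 583 and 421 CPM, with arms that overlapped.

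Ifng was higher by 1.65 (SE 0.283, adjusted p = 0.0181), from 13.4, 1.96 and 163 CPM under vehicle to 38.3, 12.8 and 540.5 CPM under PPCA. The arms overlapped widely, since both day 4 sets were far above the others, and the vehicle set of day 3 held 1 UMI. In the vehicle set of day 4 a single cell held 19 of 32 UMIs, and without it the level was 70.9 CPM. Rsrp1, a splicing-related gene named after its values were seen, completed the 7 (0.93, SE 0.169, adjusted p = 0.0244). Cdkn1a, the p53 target that encodes p21, had too few UMIs in the set to be tested. It had a log2 difference of 1.28 (SE 0.335, adjusted p = 0.445) in comparison cells. None of 9 p53 targets tested in the set passed, where 0.416% of all genes did.

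The lower genes were of other kinds. Rps15 had 2404, 3465 and 1957 CPM under vehicle and 1226, 2082 and 886 CPM under PPCA, and fell by 1.04 (SE 0.135, adjusted p = 0.00252). Rpl5 fell by 0.89 (SE 0.166, adjusted p = 0.0247), mt-Co3 by 0.93 (SE 0.133, adjusted p = 0.00548), mt-Nd1 by 0.82 (SE 0.159, adjusted p = 0.0277) and the predicted gene Gm42418 by 1.08 (SE 0.222, adjusted p = 0.0458). In all, 7 of 83 ribosomal protein genes and 5 of 13 mitochondrially encoded genes passed the test downward, with medians of -0.20 and -0.59. In comparison cells the same families had medians of -0.13 and -0.53 with none past the test, and Rps15 had a log2 difference of -0.97 (SE 0.0928, adjusted p = 0.104). That difference ran from -0.98 to -0.95 over 10 alternatives and passed in 4 of them, by DESeq2 (adjusted p = 3.43e-16, the lowest of the 10), without the low-count filter, with sex-linked status as a factor and without the day 4 pair. A direction toward lower ribosomal and mitochondrial transcripts was thus present in both classes of cell.

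**Figure D5:**
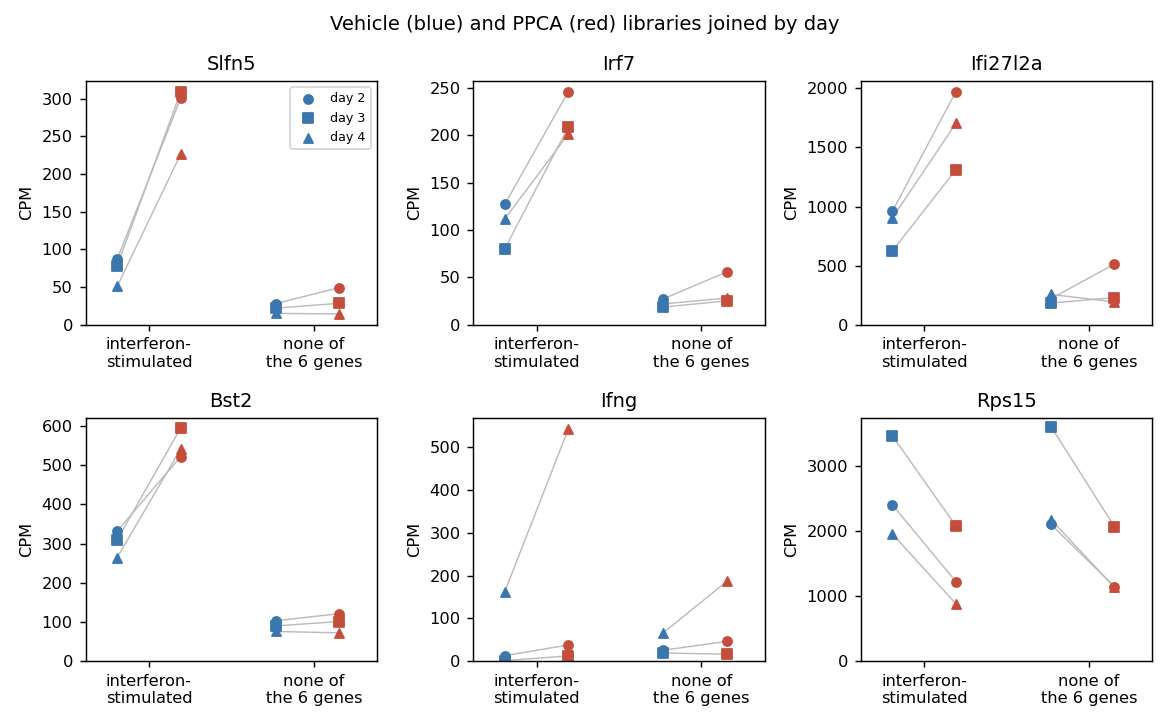
Level (vertical axes, CPM, linear from 0) of Slfn5, Irf7, Ifi27l2a, Bst2, Ifng and Rps15 in interferon-stimulated and comparison CD8 cells of the vehicle and PPCA libraries of days 2, 3 and 4, with 1 point per library and a line joining the libraries of a day. In interferon-stimulated cells the PPCA points of Slfn5 (226 to 309 CPM) lie above the vehicle points (50.8 to 87.1 CPM), on day 4 through 1 cell with 23 of 36 UMIs, and the day 4 points of Ifng stand above those of the other days in both arms.

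These calls rest on few libraries. Without the day 3 pair, the 1 pair in which both libraries carried Y-linked transcripts, no gene passed by edgeR (109 at an unadjusted p under 0.05, against 309 with all days; DESeq2 and limma-voom were run on all days only). Over 10 alternatives the log2 fold changes ran from 1.78 to 1.96 for Slfn5, 0.86 to 1.07 for Irf7 and 0.89 to 1.05 for Ifi27l2a. The call was lost in 1 of the 10 for Slfn5 and in 2 for Ifi27l2a. For Irf7 it was lost in 5, by DESeq2, without the day block and with any 1 day left out. The log2 fold changes ran more widely for Gm42418, from -1.37 to -0.53, mt-Nd1, from -1.004 to -0.573, and Rpl5, from -1.14 to -0.72. Without the day 4 pair 9 genes passed, without the day block only Slfn5 did, and with sex-linked status as a further factor 44 did. In comparison cells PPCA changed 0 of 11277 genes (0.0%) by edgeR, with 907 (8.04%) at an unadjusted p under 0.05, 40 by DESeq2 and 0 by limma-voom. The type I list had a median log2 difference of 0.04 there, and Irf7 one of 0.50 (SE 0.142, adjusted p = 0.487). For Irf7 it ran from 0.29 to 0.63 over 10 alternatives and passed in 1, without the low-count filter (adjusted p = 0.00554).

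Whether the set's difference from comparison cells itself differed between PPCA and vehicle was tested as an interaction. It passed for 7 of 10359 genes (0.0676%), of which 2 (0.0193%) had a higher and 5 (0.0483%) a lower difference under PPCA, and 465 (4.49%) had an unadjusted p under 0.05. Slfn5 (1.41, SE 0.210, adjusted p = 5.78e-07) and Bst2 (0.71, SE 0.151, adjusted p = 0.0109) were raised more in the set under PPCA, on 3 of 3 days. The 5 others, Gzmb, Gzma, Dapk2, Hopx and Lgals1, had a lower difference between set and comparison cells under PPCA than under vehicle. Dapk2, a death-associated protein kinase, had 5.46, 1.42 and 0 CPM in the PPCA sets of days 2, 3 and 4 against 13.3, 4.18 and 4.67 CPM in comparison cells, and 23.4, 7.83 and 20.3 CPM in the vehicle sets against 4.72, 3.54 and 3.52 CPM. The PPCA sets thus lay below and the vehicle sets above their comparison cells, on 0 to 12 UMIs a set. In the vehicle set of day 4 a single cell held 76 of the 76 UMIs of Gzma and 21 of the 29 of Gzmb. DESeq2 passed 0 of these genes, and with comparison cells matched on UMIs the Slfn5 interaction was 0.74 and not past the threshold.

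The authors' deposited table of marker genes by cluster gives another view of these genes. In that table the cluster named CD4 Th1 lists 5 of the 6 gate genes and 31 of the type I genes outside the gate among its 82 genes. The clusters named CD8 TCM and CD8 TRM TEM list none of the gate genes, and 2 and 9 of the type I genes among 88 and 702 genes in the authors' deposited table. For the CD4 Th1 cluster the authors' deposited table gives Isg15 in 42.7% of the cluster's cells, Ifit1 in 29.0% and Ifi27l2a in 91.0%. The cells behind the clusters are not marked in the files used here, so how the 1216 cells fall among them was not analysed.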

How the data were processed

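The 8 libraries were deposited as matrices of unnormalised UMI counts per gene and barcode over 32285 features, made with cellranger 6.0.0 per the file headers. The submitters' processing notes name Cell Ranger 6.1.2 and Seurat. The labels' protocols name 10x 3′ chemistry of version 2, while the build used is not given in the sources used here, nor is the annotation. The authors' deposited table of cluster markers holds log2 fold changes, fractions of cells with a gene detected (printed here as percent) and adjusted p-values, of which the p-values were not used. The members and gene lists were chosen with earlier results of these data known.

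Counts were summed per library over interferon-stimulated cells and over CD8-gated cells with none of the 6 gate genes. CPM is the sum per 1000000 UMIs of the summed cells. The sums were fitted with the quasi-likelihood test of edgeR 4.0.16 in R 4.3.3, with TMM scaling and filterByExpr, and with library (members against none) or day (PPCA against vehicle) as block. Every adjusted p is Benjamini-Hochberg over all genes tested, with a threshold of 0.05. Class by treatment was tested as an interaction within libraries. Libraries needed at least 10 members. Alternatives used DESeq2 1.42.0 and limma 3.58.1. Shares were taken after thinning each cell to 2000 UMIs, leaving out 13 to 100 shallower CD8-gated cells per library, with exact 95% intervals that cover counting error only. Doublets were scored with Scrublet in scanpy 1.11.5 and removed only in an alternative, by top score at 0.8% of barcodes per 1000 barcodes. Both libraries of a day, vehicle and PPCA, deviated together from the means of their arms (correlations 0.331, 0.527 and 0.515 over 11277 genes), so the days pair them.

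On simulated counts with 200 genes changed 2-fold, the method recovered 94% of them for members against none (13 false calls), 82% for PPCA in comparison cells (22), 61% for PPCA in members (6) and 33% for the interaction (1).

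Genes were named by a rule. It took the gate genes, per list up to 6 genes past the threshold (10 for the type I list) averaging at least 10 CPM and moving one way in every library, or 2 of the highest level where none passed. It also took the 8 highest and 8 lowest genes outside the lists averaging at least 20 CPM, and up to 5 genes in each direction for PPCA. Irf7, Bst2, Ifi27l2a, Cdkn1a and Rps15 were given in any case for PPCA, and receptor segments and predicted genes outside the lists were only counted. A few genes of the lists and of this rule are counted but not reported here by name. The list of B and myeloid genes for exclusion first held Cst3, which many CD8 cells carry, and C1qa replaced it after the data were seen. Alternatives were other scaling, tools and filters, no block, matched comparators, other gate thresholds, each library or day left out, and sex-linked status.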

Additional observations from a re-analysis of the deposited data

Results flagged for a closer look

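For 7 genes the difference between interferon-stimulated and comparison CD8 cells differed between PPCA and vehicle by the interaction test of edgeR with Benjamini-Hochberg adjustment.

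Slfn5, of the Schlafen family, had an interaction of 1.41 on the log2 scale (SE 0.210, adjusted p = 5.78e-07), positive on 3 of 3 days. The set stood at 87.1, 78.3 and 50.8 CPM under vehicle and at 301, 309 and 226 CPM under PPCA, against 28.1, 21.9 and 15.0 and then 49.2, 28.5 and 14.4 CPM in comparison cells. In the PPCA set of day 4 a single cell held 23 of 36 UMIs, and without it the set stood at 86.6 CPM. The call was lost by DESeq2, with matched comparators and without the day 3 pair.

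Bst2, which encodes tetherin, had an interaction of 0.71 (SE 0.151, adjusted p = 0.0109), positive on 3 of 3 days, and no cell held more than 18 of the 86 UMIs of the PPCA set of day 4. Its call was lost by DESeq2, with matched comparators, and without the day 2 or the day 3 pair. The Bst2 interaction ran from 0.64 to 0.88 over 7 alternatives.

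Gzma and Gzmb, the granzymes of cytotoxic granules, had interactions of -4.14 (SE 0.318, adjusted p = 4.16e-25) and -4.15 (SE 0.513, adjusted p = 2.02e-10). In the vehicle set of day 4 Gzma had 76 UMIs, all in 1 of 28 cells, and Gzmb 29 UMIs, of which 21 were in 1 cell. In the vehicle set of day 3, 38 of 49 Gzma UMIs were in 1 of 64 cells. These interactions therefore describe a few cells of small sets. Without the day 4 pair the Gzmb interaction was -2.07 and not past the threshold, while Gzma kept its call at -3.12, and DESeq2 called neither.

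Dapk2, a death-associated kinase, had an interaction of -3.27 (SE 0.728, adjusted p = 0.0210) on 7, 4 and 4 UMIs in the vehicle sets and 12, 2 and 0 in the PPCA sets. Leaving out any 1 day ended its call. Hopx, a homeobox protein of effector cells, had -1.26 (SE 0.294, adjusted p = 0.0422), with 13 of its 16 UMIs in 1 cell of the vehicle set of day 4. Each of its 7 alternatives ended the call, with interactions from -1.37 to -0.89. Lgals1, which encodes galectin-1, had -0.83 (SE 0.184, adjusted p = 0.0210), with 53 of 93 UMIs in 1 cell of that set, and 5 settings ended its call.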

How the results depend on the processing

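In each comparison, none of the named genes that passed its test changed direction under any alternative of that comparison. The calls held in 996 of 1041 alternative fits of 48 genes for interferon-stimulated against comparison cells, in 87 of 120 fits of 12 genes for PPCA in the set, and in 21 of 47 fits of 7 genes for the interaction. The first count includes 1 alternative, libraries with at least 20 members, that left all 8 libraries in. It repeated the main fit and could end no call. The 234 genes of the first comparison were 146 without the library block (no replicate block) and 193 to 254 with 1 library left out. For PPCA in comparison cells the count of 0 became 40 by DESeq2, 240 without the low-count filter, 111 with sex-linked status as a factor, and 0 to 18 with 1 day left out. For PPCA in the set the 20 became 38 without the filter, 1 with no replicate block, 44 with sex-linked status, and 0 to 23 with 1 day left out. The 7 interactions became 0 by DESeq2, 1 with matched comparators, and 4 to 11 with 1 day left out. The difference in share stayed between 0.955 (at least 4 genes) and 5.74 percentage points (no thinning), was 2.55 with no replicate block (exact permutation p = 0.20) and ran from 1.44 to 3.70 with 1 day left out.

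Log2 differences of genes that did not pass the test of the comparison given changed sign as follows. In interferon-stimulated against comparison cells, matched comparators gave Itgb7 0.0519, Bax -0.0233, Trbc2 0.0158, Cd3g 0.0272, Cst3 0.0591 and Eomes -4.22e-05. No replicate block gave Cd69 -0.0429, Junb -0.0310 and Klre1 0.0699. A gate of 2 genes gave Ctla4 0.0152, Cd69 -0.0205 and Bax -0.0296, and a gate of 4 genes Hmgb2 0.00283 and Bax -0.0456. Xist-positive libraries gave Cd69 -0.0670, Trbc2 0.0651 and Cd79b 0.00702, Y-positive libraries Ctla4 0.122 and Trp53inp1 -0.0439, and DESeq2 Ighm -0.00189. With 1 library left out Ctla4 ran from -0.157 to 0.0684, Bax from -0.00365 to 0.0781 and Klre1 from -0.584 to 0.219, each changing sign without the active library. For PPCA in comparison cells, Bst2 was -0.00949 without doublets and ran from -0.0550 to 0.0561 with 1 day left out, and Ifi27l2a ran from -0.149 to 0.628. The causes were not tested.

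With 3 days and 28 to 64 cells in each vehicle set, 61% of simulated 2-fold changes were found there, and smaller changes were not simulated. The PPCA and vehicle libraries of days 2 and 4 also differed in sex-linked transcripts, and each group had 1 library per day, with the number of mice not stated.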

Other observations

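Some further genes are named after their values were seen. Cd274, which encodes the checkpoint ligand PD-L1, averaged 38.1 CPM in interferon-stimulated and 16.6 CPM in comparison cells over the libraries, a log2 fold change of 1.11 (SE 0.137), and was higher in 7 of 8 libraries. Cxcl10, a chemokine that attracts T cells, averaged 11.7 and 3.62 CPM (2.15, SE 0.376), and its call was lost without the library block and in the Xist-positive libraries. Tnfsf10, which encodes the death ligand TRAIL, averaged 59.0 and 29.5 CPM and was higher in 7 of 8 libraries. Plac8, a small cysteine-rich protein, averaged 154 and 56.2 CPM (1.62, SE 0.113) and was higher in 7 of 8. The cells of the set were chosen by their interferon genes and also gave these values, which are therefore a description.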
